A study of Rattus norvegicus with 51 samples.

Results

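The direction of stretch was compared in aligned heart tissue after 6 h: 3 arrays of tissue stretched across its fibronectin pattern (transverse) were set against 3 arrays of tissue stretched along it (longitudinal). These were 6 of the 51 arrays of the series, taken by their labels, and both groups came from harvests 3, 4 and 5, so that each transverse array has a longitudinal partner from the same harvest of cells. The cells were ventricular myocytes of newborn Sprague-Dawley rats, plated on silicone membranes micropatterned with fibronectin (anisotropic tissue), held without stretch for 1 h, and then stretched for 6 h. All 6 cultures were within the first 48 h of culture, in M199 medium with 10% fetal bovine serum. Anisotropic tissue of 6 h that was never stretched (3 arrays, harvests 1, 2 and 5) served as the reference for each direction, and it shares only harvest 5 with the stretched groups. In all, the series holds 16 groups on isotropic or anisotropic fibronectin at 0, 6, 24 and 96 h, from 6 harvests, and the 0 h group has 6 arrays. How far and how fast the membranes were stretched, and how old the pups were, is not given in the sources used here. A harvest is a separate isolation of cells, the cells are freshly plated and neonatal, and the cultures also hold cells other than myocytes, so the values describe mixed young cultures. With 3 arrays in each direction, the number of arrays limits the precision.

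Heart muscle cells carry load mainly along their long axis, where the sarcomeres lie in series, and load across that axis reaches them through the lateral membrane and its anchors. Stretch of cultured cardiac cells is known to switch on immediate early genes, the natriuretic peptides and secreted inflammatory factors. Granulocyte-macrophage colony-stimulating factor (Csf2), interleukin 1 and the neutrophil chemokines are short-lived early transcripts in many cell types, and in the heart they are made by myocytes as well as by fibroblasts, endothelium and resident macrophages.

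Values are log2 signals, and a difference is the transverse minus the longitudinal value, so that a negative difference means less signal with transverse stretch. The 6 arrays had median log2 signals of 5.33 to 5.37 and correlated at 0.994 to 0.998 across genes. Elsewhere in the series, a pair of isotropic arrays (replicate 1 of the 24 h stretched and replicate 1 of the 96 h unstretched group) lay apart from their labelled groups, each among the arrays of the other's time. On an axis running from 0 for unstretched anisotropic tissue at 24 h to 1 at 96 h, the first lay at 0.90 beside 0.07 and 0.06 for its group, and the second at 0.22 beside 1.03 and 1.01. They do not belong to either direction and were kept as labelled, but they enter the shared estimate of spread. With the pair exchanged 3 genes passed between directions, without Tfpi2, and with it left out 5 passed, Il1a being added.

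Compared with longitudinal stretch, transverse stretch gave lower expression of 4 genes, Csf2, Csf3, Mmp3 and Tfpi2, and higher expression of none. They encode a pair of colony-stimulating factors, a matrix protease and a protease inhibitor. The test was limma with harvest as a term, adjusted over 18635 genes by Benjamini-Hochberg at 0.05, so 0.0215% of genes passed, and the median difference over all genes was 0.01. Its standard errors and p-values rest on a spread pooled over all groups of the series, not on the 6 arrays compared alone. At an unadjusted p under 0.05 there were 381 genes (2.04%), 215 lower (1.15%) and 166 higher (0.891%). That is a smaller share than the 0.05 expected with no difference at all. The same count was 1017 with the 6 arrays fitted alone and 1036 with the 6 h and 0 h arrays alone. Without the harvest block 2 genes passed, Csf2 and Mmp3, and with the 6 arrays fitted alone, paired by harvest, 12 passed, all lower with transverse stretch. With single arrays left out the count was 1 without longitudinal harvest 3, 2 without longitudinal harvest 5, 2 without transverse harvest 3, 8 without transverse harvest 4 and 2 without transverse harvest 5.

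**Figure D1:**
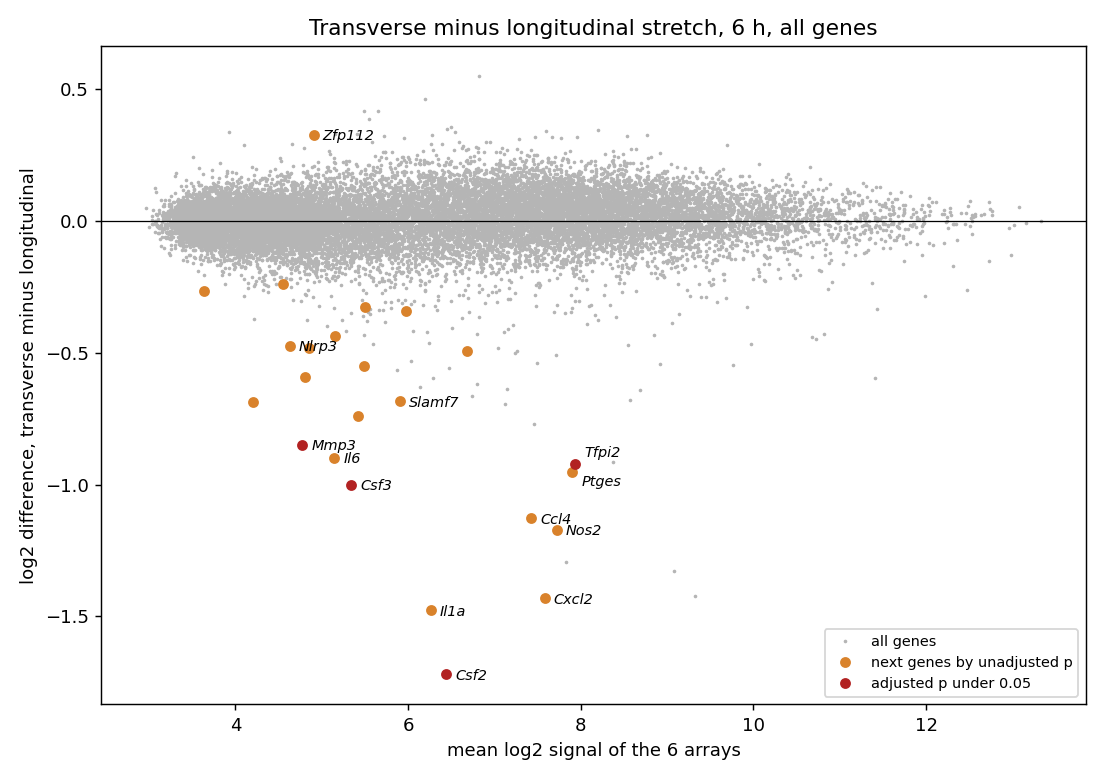
Each grey point is 1 of 18635 genes, with the mean log2 signal of the 6 arrays on the horizontal axis and the log2 difference (transverse minus longitudinal) on the vertical axis. The 4 genes that passed (red) run from -1.72 for Csf2 to -0.85 for Mmp3, and of the 20 genes named next (orange), 19 lie below 0 and Zfp112 lies above. These 20 are next by p among genes with the same sign in every harvest, leaving out unnamed loci and olfactory and vomeronasal receptors.

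Csf2 encodes granulocyte-macrophage colony-stimulating factor, which drives the growth and activation of myeloid cells. Its log2 signal was 7.80, 6.93 and 7.18 in longitudinally stretched tissue of harvests 3, 4 and 5, and 5.84, 5.75 and 5.16 in transversely stretched tissue of the same harvests. Every longitudinal array lay above every transverse array, and the gap within a harvest was smallest in harvest 4. The difference was -1.72 ± 0.20 (SE, 95% confidence interval -2.12 to -1.32, n = 3 against 3, limma adjusted p = 5.48e-06), a 3.29-fold higher signal with longitudinal stretch. This standard error, interval and p-value rest on a spread pooled over all groups of the series. The SD of Csf2 was 0.45 with longitudinal and 0.37 with transverse stretch, and ran from 0.03 to 0.51 over all groups. With the 6 arrays fitted alone, paired by harvest, the same difference passed less clearly (limma adjusted p = 0.0215). Of the transverse arrays, those of harvests 3 and 4 lay just above the array medians of 5.33 to 5.37 and that of harvest 5 below them, so the transverse level may be close to background. In the 19 alternatives that could test it, Csf2 passed in 19, at -1.99 to -1.50. It was not tested where genes with a mean log2 signal under 6 were left out, since its mean over the arrays lay below that.

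Csf3 encodes granulocyte colony-stimulating factor, which directs the production of neutrophils. It read 5.88, 5.88 and 5.76 with longitudinal and 4.88, 5.21 and 4.42 with transverse stretch in harvests 3, 4 and 5. The groups did not overlap, and the longitudinal arrays lay close together while the transverse arrays spread. The difference was -1.0 ± 0.17 (SE, limma adjusted p = 0.00454). The signal lay close to the array median, and the call was lost without longitudinal harvest 3 or 5 and without transverse harvest 5, with the difference negative throughout.

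Mmp3 encodes stromelysin 1, a metalloprotease that cuts proteoglycans, fibronectin and other matrix proteins and activates other matrix proteases. It read 5.23, 5.25 and 5.12 with longitudinal and 4.24, 4.36 and 4.46 with transverse stretch. The arrays of each direction kept together and the groups were well apart, although both lay below the array median. The difference was -0.85 ± 0.14 (SE, limma adjusted p = 0.00389), and the call was lost without the array of either direction from harvest 3, and without the pair of harvest 3 or of harvest 4.

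Tfpi2 encodes tissue factor pathway inhibitor 2, a secreted Kunitz-type inhibitor of serine proteases that is found in the matrix. It read 8.53, 8.55 and 8.12 with longitudinal and 7.61, 7.32 and 7.51 with transverse stretch. The groups did not overlap, and unlike Csf2 and Csf3 the gap was widest in harvest 4. The difference was -0.92 ± 0.18 (SE, limma adjusted p = 0.0499). It lay at the threshold: leaving out any single array of the 6 ended the call, as did exchanging the pair of isotropic arrays (limma adjusted p = 0.0659), and it passed in 5 of 20 alternatives, at -1.07 to -0.77.

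The promoters of 3 of these genes are printed so that the letters of known response elements near their starts can be seen. The sequences are RefSeq's (GRCr8), 250 bases before to 50 after the gene start, printed 5′ to 3′ on the gene's strand, and capitals mark matches to AP-1 (TGANTCA), C/EBP (TTGCNNAA), CRE (TGACGTCA), TEAD (GGAATG) or the NF-kappaB and SRF CArG consensus, searched on both strands. The Csf2 window lies at chr10:38889624-38889923 (minus strand) and holds no exact match to these patterns. Sites that depart from the patterns by a letter were not searched, so this does not show that the window lacks such elements. The Mmp3 window lies at chr8:12925031-12925330 (plus strand) and holds a C/EBP match 171 bases and an AP-1 match 71 bases before the start. The Tfpi2 window lies at chr4:32941227-32941526 (minus strand) and holds an NF-kappaB match 139 bases and an AP-1 match 80 bases before the start.
Csf2: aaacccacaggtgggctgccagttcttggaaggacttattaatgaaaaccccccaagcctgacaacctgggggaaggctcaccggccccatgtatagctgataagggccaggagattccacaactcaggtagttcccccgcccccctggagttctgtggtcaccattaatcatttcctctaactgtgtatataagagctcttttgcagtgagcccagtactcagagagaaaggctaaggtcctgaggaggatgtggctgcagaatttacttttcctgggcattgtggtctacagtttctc
Mmp3: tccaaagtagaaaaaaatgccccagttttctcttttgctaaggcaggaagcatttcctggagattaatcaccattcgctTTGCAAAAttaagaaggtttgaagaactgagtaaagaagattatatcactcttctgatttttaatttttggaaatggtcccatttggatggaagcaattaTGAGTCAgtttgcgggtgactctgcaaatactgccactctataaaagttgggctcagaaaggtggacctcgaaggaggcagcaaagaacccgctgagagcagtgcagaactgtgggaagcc
Tfpi2: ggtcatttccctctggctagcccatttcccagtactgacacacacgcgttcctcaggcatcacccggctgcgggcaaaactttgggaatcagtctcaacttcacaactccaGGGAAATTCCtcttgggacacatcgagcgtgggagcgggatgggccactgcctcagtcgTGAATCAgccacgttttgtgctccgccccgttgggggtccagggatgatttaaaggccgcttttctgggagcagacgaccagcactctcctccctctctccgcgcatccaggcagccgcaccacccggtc

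Of the 24 genes named by rank for this comparison, 20 had a promoter in the table, and Csf3, Niacr1, Nos2 and Ccl4 had none. AP-1 letters stood in 7 of the 20 (35%) against 7.33% of all 33469 promoters, in Tfpi2, Mmp3, Slamf7, Il1a, Mmp13, Bcl2a1d and Krtap31-1. NF-kappaB letters stood in 3 (15% against 7.51%), Tfpi2, Il6 and Cxcl2, and C/EBP letters in 6 (30% against 10.6%). CRE letters stood in 2 (10% against 1.83%), TEAD letters in 1 (5% against 14.2%) and SRF CArG letters in 0 (against 1.64%). These matches describe the letters only. The stretches around the matches of 5 further genes, picked by name and not by a rule, are given. The AP-1 pattern leaves only its middle letter free. Mmp13, Slamf7 and Il1a read TGACTCA at 66, 61 and 12 bases before the start. The other AP-1 matches read TGAATCA (Tfpi2 and Bcl2a1d), TGAGTCA (Mmp3) and TGATTCA (Krtap31-1). NF-kappaB letters stand in Il6 and Cxcl2 at 68 and 74 bases before the start. In the order printed, the 5 stretches lie at chr8:12782743-12782789 (plus), chr13:86686376-86686422 (minus), chr3:136990003-136990049 (minus), chr4:5894614-5894663 (minus) and chr14:17467299-17467349 (minus).
Mmp13: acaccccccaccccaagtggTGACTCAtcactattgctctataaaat
Slamf7: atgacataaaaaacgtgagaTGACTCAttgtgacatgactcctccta
Il1a: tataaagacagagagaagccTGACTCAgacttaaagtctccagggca
Il6: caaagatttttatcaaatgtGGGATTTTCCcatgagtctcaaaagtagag
Cxcl2: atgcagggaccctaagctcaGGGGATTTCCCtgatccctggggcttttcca

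The 20 genes named next by p, by the same rule, did not pass and are given as values. Il1a, interleukin 1 alpha, which signals from injured cells, read 6.82, 7.44 and 6.75 with longitudinal and 4.97, 6.60 and 5.0 with transverse stretch. The groups did not overlap, but the transverse array of harvest 4 lay far above the other two. The difference was -1.48 ± 0.33 (SE, limma adjusted p = 0.192), and it passed in 3 of 19 alternatives: the 6 arrays fitted alone, without the pair of isotropic arrays, and without transverse harvest 4.

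Cxcl2, a chemokine that attracts neutrophils, read 8.20, 8.54 and 8.16 with longitudinal and 6.85, 7.81 and 5.94 with transverse stretch (difference -1.43 ± 0.37). Nos2, inducible nitric oxide synthase, read 8.25, 8.43 and 8.25 with longitudinal and 6.63, 7.93 and 6.85 with transverse stretch (difference -1.17 ± 0.29). Ccl4, a chemokine for macrophages and T cells, read 7.87, 8.24 and 7.86 with longitudinal and 6.61, 7.75 and 6.23 with transverse stretch (difference -1.13 ± 0.35). In these 3 genes, which did not pass, all longitudinal arrays stood above all transverse arrays, as in Il1a. That was so for 3.43% of all genes, and these were named by p and sign on the same arrays, which favours it. In each of them the array of harvest 4 was the highest of its group in both directions.

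Il6, interleukin 6, read 5.92, 5.73 and 5.13 with longitudinal and 4.77, 4.83 and 4.49 with transverse stretch (difference -0.90 ± 0.22, limma adjusted p = 0.423). Ptges, which makes prostaglandin E2, read 8.05, 8.54 and 8.54 with longitudinal and 7.43, 7.72 and 7.12 with transverse stretch (difference -0.95 ± 0.26). Both showed no overlap between directions, as did 3.43% of all genes with transverse lower. Further values that did not pass were -0.47 for Nlrp3, the sensor of an inflammasome, -0.27 for Aoah, which inactivates bacterial lipopolysaccharide, -0.59 for Niacr1 (now Hcar2), a receptor for nicotinic acid, and -0.68 for Slamf7, a receptor of immune cells. Irg1 (now Acod1), which makes itaconate, lay at -0.74, the collagenase Mmp13 at -0.69, the tolloid-like protease Tll1 at -0.48, the survival gene Bcl2a1d (now Bcl2a1) at -0.43 and the proteoglycan Srgn at -0.55. Krtap31-1 lay at -0.49, Fam71e1 (now Garin5a) at -0.33, Shq1, which helps assemble small nucleolar ribonucleoproteins, at -0.34 and the adhesion molecule Ceacam6 at -0.24. The only one of these 20 with more signal under transverse stretch was Zfp112, a zinc finger gene, at 0.33, with 4.67, 4.76 and 4.79 against 5.02, 4.95 and 5.24. Its groups did not overlap, as was so with transverse stretch higher for 4.12% of all genes. Nlrp3, Aoah, Niacr1, Mmp13, Tll1, Ceacam6 and Zfp112 had means below the array medians of 5.33 to 5.37 in both directions. Their levels may be close to background.

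**Figure D2:**
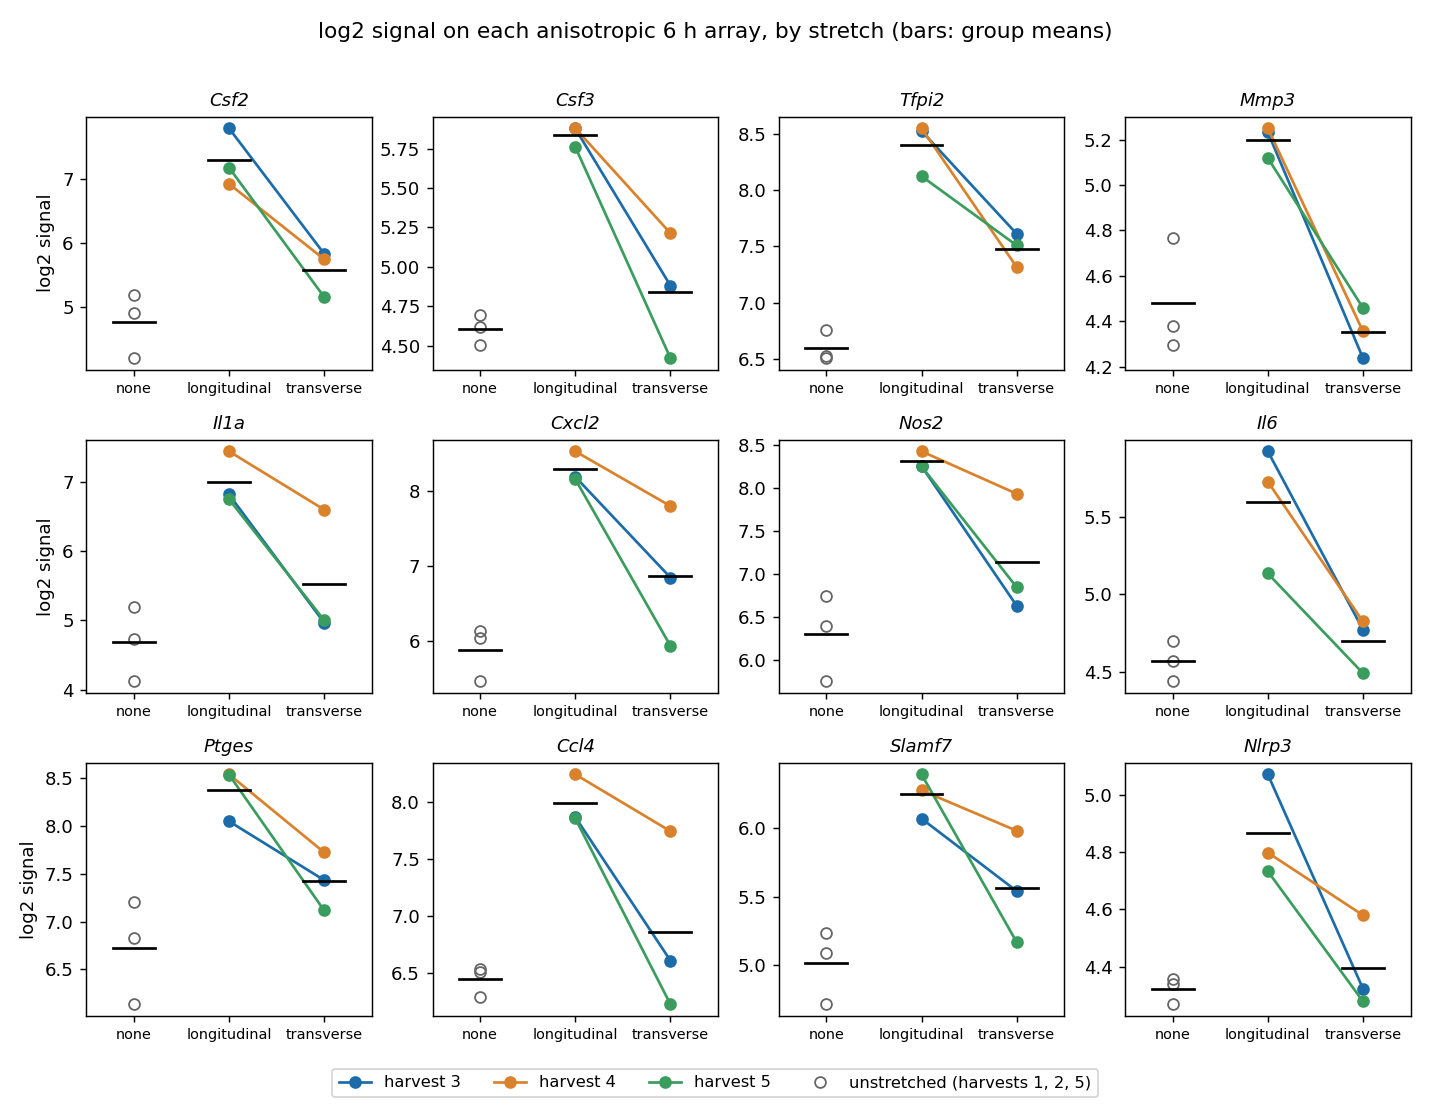
Log2 signal of 12 genes on each of the 9 anisotropic 6 h arrays, by stretch, with lines that join longitudinal and transverse arrays of the same harvest and black bars at group means. The 12 genes were picked by name from those named by rank, all with a negative difference. All 3 lines go down in every panel, which follows from that pick and from the naming rule, since it asked for the same sign in every harvest. Harvest 4 (orange) has the highest longitudinal and the highest transverse point for Il1a, Cxcl2, Nos2 and Ccl4.

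The size of the difference varied between harvests, and not in the same way for every gene. For Il1a the differences in harvests 3, 4 and 5 were -1.85, -0.84 and -1.74, for Nos2 -1.62, -0.49 and -1.40 and for Cxcl2 -1.34, -0.73 and -2.22. Ccl3, a macrophage chemokine (-1.61, -0.46 and -1.91), and Mmp12, macrophage elastase (-1.43, -0.50 and -1.95), followed the same order, smallest in harvest 4. The reverse held for Tfpi2 (-0.91, -1.23 and -0.62), for Inhba, the activin A subunit (-0.48, -0.99 and -0.45), for Ctgf (now Ccn2), connective tissue growth factor (-0.19, -0.84 and -0.27), and for Nppb, B-type natriuretic peptide (-0.26, -0.72 and -0.36), all widest in harvest 4. Across all genes, the differences of any 2 harvests correlated at 0.01 to 0.19, as a description.

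Among cytokines and other inflammatory mediators 2 of 25 measured genes passed, Csf2 and Csf3. Both were lower with transverse than with longitudinal stretch, and none was higher. The median of the list was -0.35, beside 0.01 over all genes. In 16 of the 25 (64%) the transverse array was the lower in every harvest, against 11.4% of all genes, and in 10 (40%) the groups did not overlap with transverse lower, against 3.43%. At an unadjusted p under 0.05 there were 10 lower (40%, against 1.15% of all genes) and 0 higher (against 0.891%). The lists here and below were chosen with earlier results of these data known, and this one holds Csf2 and Csf3. Their shares are therefore a description and no test of enrichment. Among members outside the rule for named genes, picked after their values were seen, Il1b, interleukin 1 beta, read 9.84, 10.28 and 9.99 with longitudinal and 8.28, 9.81 and 7.76 with transverse stretch (difference -1.42 ± 0.58). Lif, leukaemia inhibitory factor, read 8.94, 9.04 and 8.74 with longitudinal and 8.45, 7.92 and 8.31 with transverse stretch (difference -0.68 ± 0.28). Neither passed, though no array of either gene crossed between directions. Il18 (0.12), Clcf1 (0.04) and Il1rn, the interleukin 1 receptor antagonist (0.03), were the 3 members with a positive difference.

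None of 18 chemokines passed (median -0.26). The difference was negative for 17, beside 8703 of all 18635 genes. The transverse array was lower in every harvest for 7 (38.9%, against 11.4% of all genes). For 6 (33.3%, against 3.43%) the groups did not overlap with transverse lower. The largest differences were those of Cxcl2 and Ccl3 (-1.33 ± 0.46), and Ccl12 was the only positive one (0.16). Of 25 proteases and their inhibitors, Mmp3 was lower with transverse than with longitudinal stretch and none was higher (median -0.05). Mmp12 lay at -1.30 ± 0.52 and Mmp13 at -0.69 ± 0.16, while of the Timp inhibitors Timp1 lay at -0.20 and Timp2, Timp3 and Timp4 between -0.02 and 0.02. None of 25 interferon response genes passed (median -0.11), and 10 (40%, against 11.4% of all genes) were lower in every harvest, with Oasl at -0.46 ± 0.18 and Rsad2 at -0.42 ± 0.23. By harvest, the interferon median was -0.29 in harvest 3, 0.03 in harvest 4 and -0.19 in harvest 5. None of 24 immediate early genes passed (median -0.12), with Atf3, a stress-induced transcription factor, at -0.47 ± 0.51 and Fos at -0.12 ± 0.14. Atf3 read 8.70, 8.77 and 8.89 with longitudinal and 8.38, 8.22 and 8.35 with transverse stretch, so its groups did not overlap and its standard error comes from its spread over the other groups of the fit. In all, 46 lists with 825 measured genes were examined, and 39 medians lay within 0.1 of 0.

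**Figure D3:**
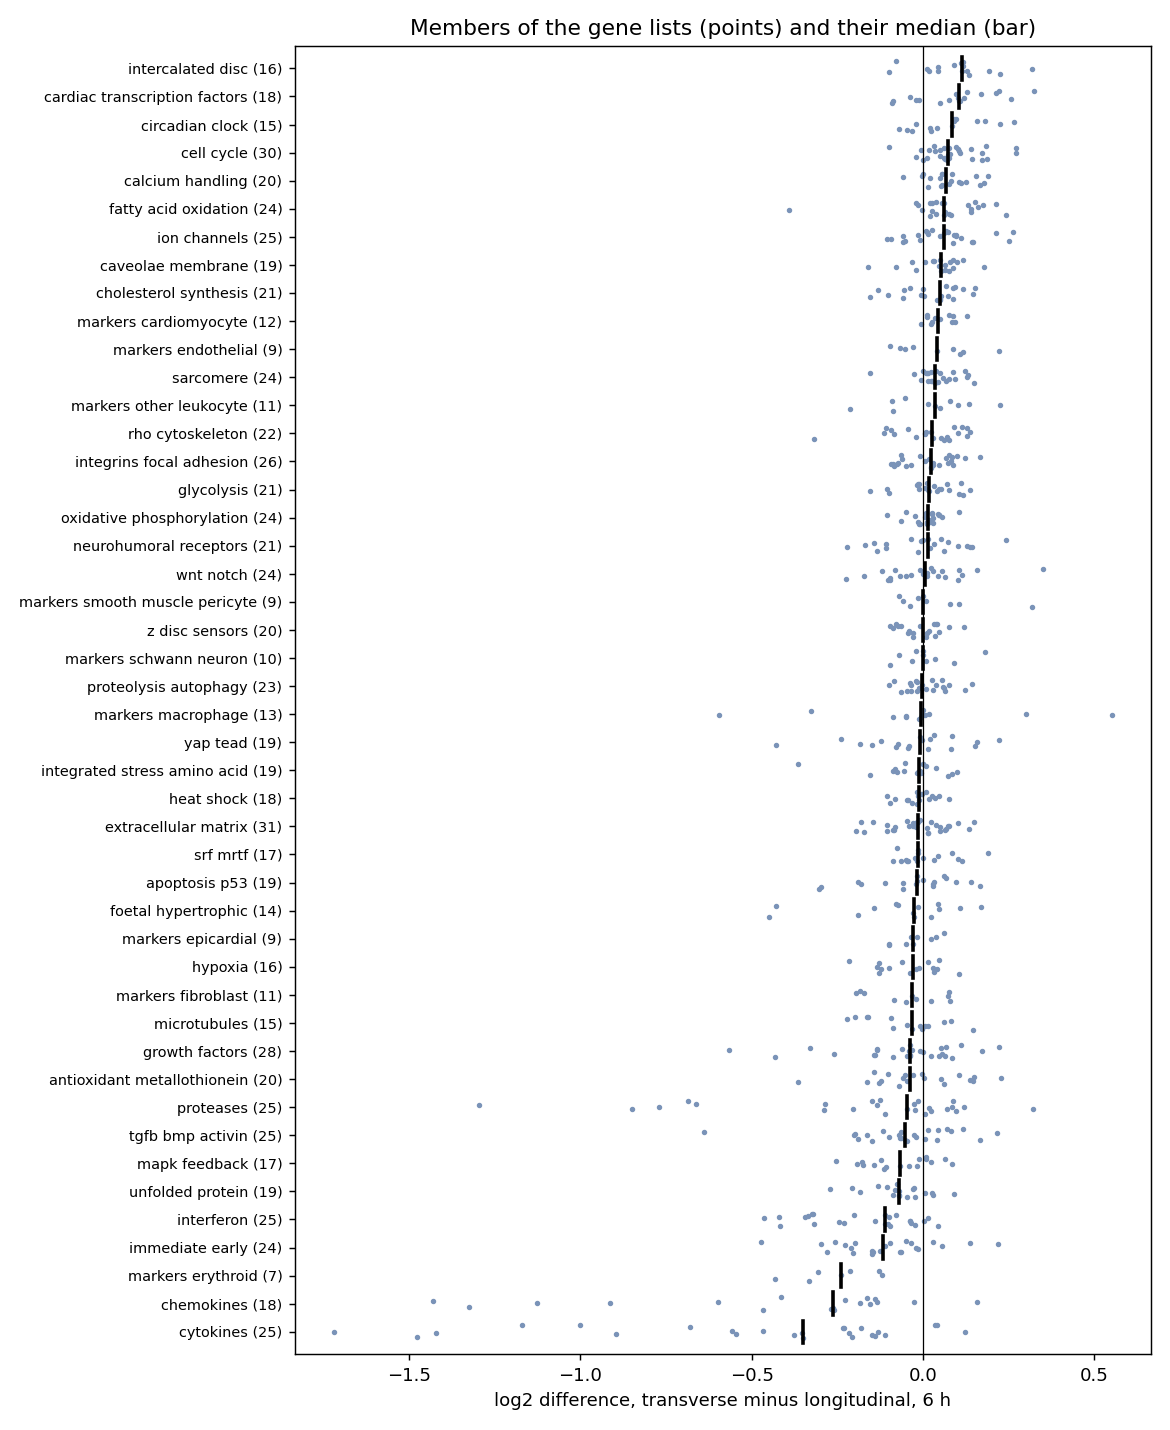
Log2 difference (transverse minus longitudinal) of each measured member of 46 gene lists (points), with the list median as a black bar and the number of members in brackets. Cytokines (median -0.35) and chemokines (median -0.26) reach furthest to the left, and 39 medians lie within 0.1 of 0.

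None of the markers of cardiac load passed between directions. Nppb read 10.92, 11.09 and 10.83 with longitudinal and 10.66, 10.37 and 10.47 with transverse stretch (difference -0.45 ± 0.23). Its groups did not overlap, as was so with transverse lower for 3.43% of all genes. Nppa, atrial natriuretic peptide, lay at -0.01 ± 0.23, Acta1, skeletal actin, at 0.04 ± 0.30, Ankrd1, a sarcomeric stress protein, at -0.07 ± 0.08 and Ctgf at -0.43 ± 0.28. None of these markers passed against unstretched 6 h tissue in either direction. The longitudinal and transverse differences from it were 0.04 and -0.40 for Nppb, 0.05 and 0.04 for Nppa and -0.17 and -0.13 for Acta1. They were -0.01 and -0.08 for Ankrd1 and 0.70 and 0.27 for Ctgf. The myosin heavy chains Myh6 (0.09 ± 0.11) and Myh7 (0.02 ± 0.10), the calcium pump Atp2a2 (0.06 ± 0.11), the gap junction gene Gja1 (0.13 ± 0.13), the collagen chain Col1a1 (0.07 ± 0.25) and the protease Adamts8 (-0.29 ± 0.35) had intervals that included 0. The foetal and hypertrophic list had a median of -0.03 over 14 genes, the sarcomere list 0.04 over 24 and the YAP and TEAD list -0.01 over 19, with 0 called in each.

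The summed signals of myocyte, macrophage and fibroblast markers overlapped between directions. The myocyte label was borne out by Myh6, cardiac myosin heavy chain, at mean log2 signals of 11.99 and 12.08 against array medians near 5.3. The summed linear signal of 12 cardiomyocyte markers ran from 46370 to 51220 with longitudinal and from 49350 to 53480 with transverse stretch. That of 13 macrophage markers ran from 1980 to 2460 and from 1864 to 2182, and that of 11 fibroblast markers from 7237 to 11600 and from 7135 to 10250. The ranges overlapped in each case, and none of these markers passed. Single markers did not all overlap. Of 11 markers of other leukocytes, 3 stood apart with transverse higher (beside 4.12% of all genes) and 0 with transverse lower (beside 3.43%). Ptprc, a general leukocyte marker, was among the 3 (0.23 ± 0.17), and none of the 11 passed. Macrophage markers had a median of 0.00, with Csf1r, the receptor for colony-stimulating factor 1, higher under transverse stretch in all 3 harvests (0.55 ± 0.22) and Emr1 (now Adgre1) at -0.60 ± 0.38. Neither passed, but Csf1r did in the fit to the 6 h and 0 h arrays alone. Unstretched tissue (harvests 1, 2 and 5) had a macrophage sum of 1298 to 1637, below all 6 stretched arrays (harvests 3, 4 and 5). The sums carry no harvest term, so stretch and harvest cannot be told apart there outside harvest 5. Erythroid markers had a median of -0.24 over 7 genes, -0.76 in harvest 3, 0.12 in harvest 4 and -0.07 in harvest 5. Their part in the inflammatory differences was not tested, and in bulk RNA fewer cells of a type and less RNA per cell cannot be told apart.

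Set against unstretched anisotropic tissue of 6 h, the 2 directions had the following values, which share the same 3 control arrays. The harvest terms that link them come from the whole series, since only harvest 5 is common. Csf2 read 4.21, 4.91 and 5.19 without stretch, and its difference from that was 2.38 ± 0.20 for longitudinal (limma adjusted p = 3.59e-09) and 0.66 ± 0.20 for transverse stretch. Tfpi2 read 6.51, 6.75 and 6.53 without stretch, and lay 1.70 ± 0.19 higher with longitudinal (limma adjusted p = 1.06e-06) and 0.78 ± 0.19 with transverse stretch (limma adjusted p = 0.565). All 3 transverse arrays of Tfpi2 stood above all unstretched arrays, while those of Csf2 overlapped with them. Csf3 read 4.50, 4.62 and 4.69 without stretch, and its differences were 1.06 ± 0.17 (limma adjusted p = 0.00101) and 0.06 ± 0.17. Mmp3 read 4.38, 4.30 and 4.77 without stretch, and its differences were 0.61 ± 0.14 (limma adjusted p = 0.0990) and -0.23 ± 0.14. In both genes the transverse arrays overlapped with the unstretched arrays. Over all genes 18 (0.0966%) rose with longitudinal stretch and 0 changed with transverse stretch by limma (576 at an unadjusted p under 0.05, 1 passing without transverse harvest 5), and the difference between directions is the test given above.

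At 24 and 96 h none of these 4 genes passed between directions. These later comparisons are only partly paired: the directions share harvests 4 and 5 at 24 h and harvest 1 at 96 h, and the harvest terms link the rest. Csf2 differed between directions by 0.02 ± 0.20 at 24 h and 0.04 ± 0.21 at 96 h. Its mean log2 signals with longitudinal and transverse stretch were then 4.18 and 4.23 at 24 h and 3.88 and 3.94 at 96 h, below the array medians near 5.3, so both directions may lie close to background at these times. The change of its difference from 6 h was 1.74 ± 0.28 to 24 h (limma adjusted p = 0.0104) and 1.76 ± 0.29 to 96 h (limma adjusted p = 0.0120), and it was the only gene to pass in either test (0.00537% of genes). The calls on the change were lost without longitudinal harvest 3 or transverse harvest 5, and that to 96 h also without longitudinal harvest 5. Without transverse harvest 4 the change to 96 h passed for 2 genes. Csf3 lay at -0.17 ± 0.17 and -0.03 ± 0.18, Tfpi2 at -0.05 ± 0.19 and -0.08 ± 0.19, and Mmp3 at -0.22 ± 0.14 and 0.07 ± 0.15 at 24 and 96 h. Their changes from 6 h did not pass. At 24 h 0 of 18635 genes passed between directions by limma (1460 at an unadjusted p under 0.05) and at 96 h 0 (1064).

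**Figure D4:**
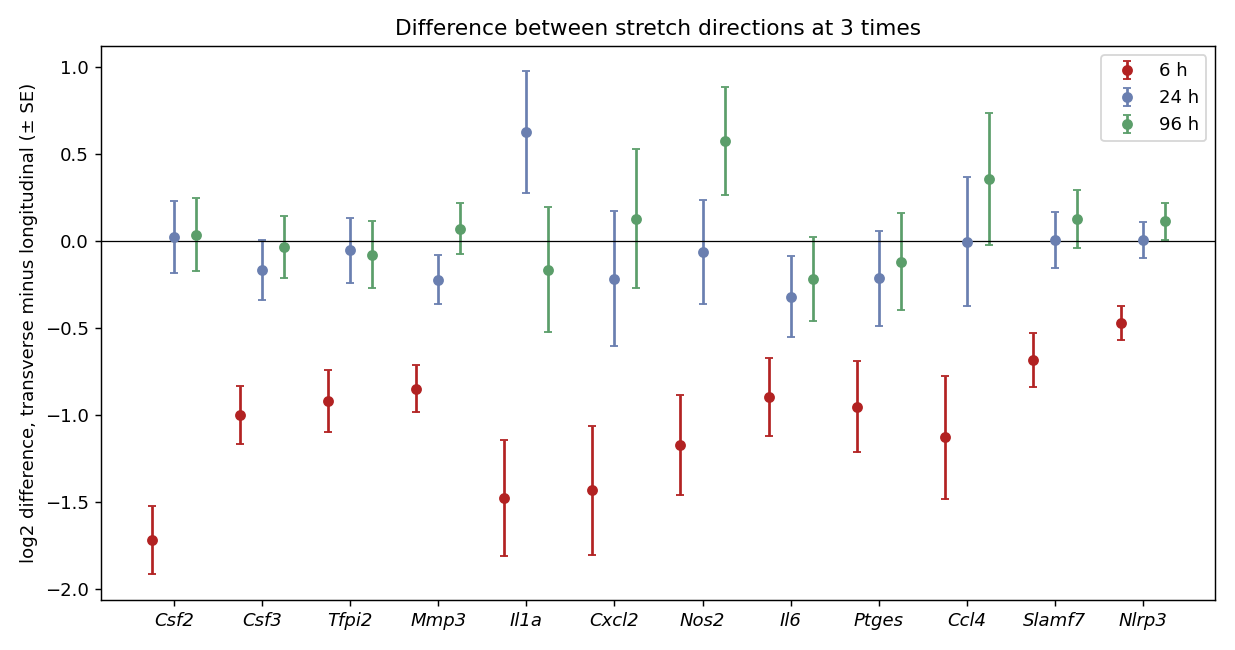
Log2 difference (transverse minus longitudinal) with its standard error for 12 genes at 6, 24 and 96 h, 3 arrays a direction at each time. The 12 genes were picked by name from those named by their p and sign at 6 h, all with a negative difference. Their place below 0 at that time follows from the pick. At 6 h they run from -1.72 for Csf2 to -0.47 for Nlrp3, while at 24 h Csf2 lies at 0.02 and Il1a at 0.63.

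Across the 16 groups of the series, Csf2 was highest in longitudinally stretched 6 h tissue, at 7.30 ± 0.45 (SD, n = 3), followed by transversely stretched 6 h tissue at 5.58 ± 0.37. The other groups ran from 3.75 to 4.86, with isotropic tissue stretched for 6 h at 4.80 ± 0.26. Tfpi2 had the same leading group, at 8.40 ± 0.24, but the 0 h tissue (7.56 ± 0.42, n = 6) and transverse tissue (7.48 ± 0.15) came next and did not differ beyond their spread. Il1a was at 7.0 ± 0.38 with longitudinal stretch, and 0 h tissue (5.65 ± 0.45) and transverse tissue (5.52 ± 0.93) again lay within each other's spread. Cxcl2 was at 8.30 ± 0.21 with longitudinal and 6.87 ± 0.93 with transverse stretch, and 0 h tissue lay at 6.67 ± 0.28.

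**Figure D5:**
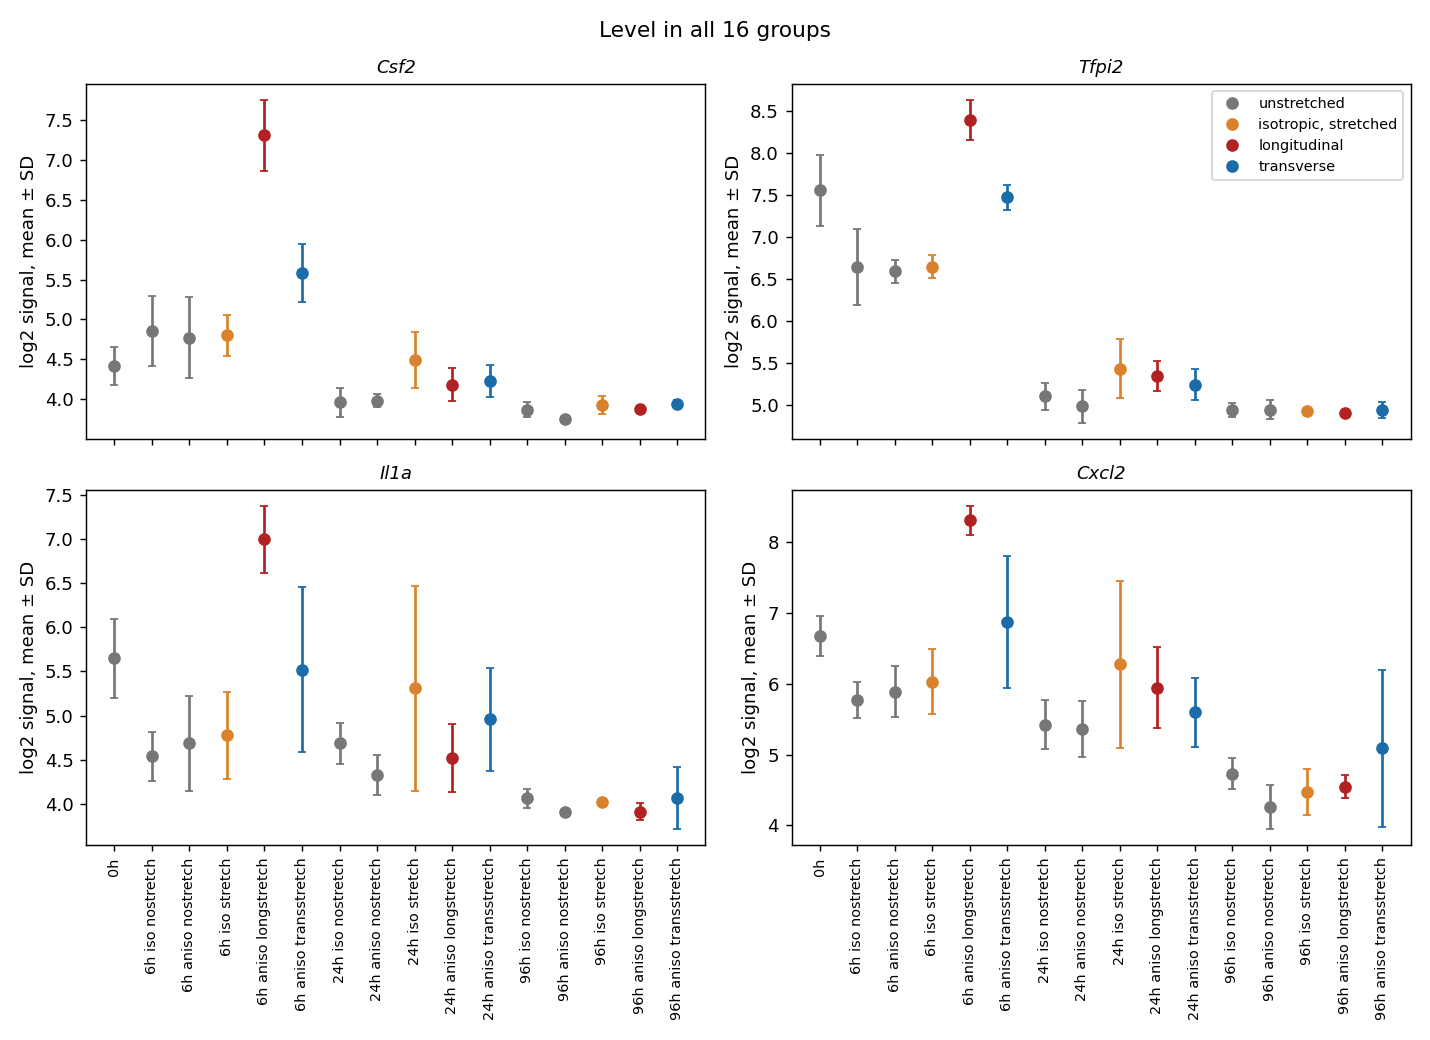
Mean log2 signal ± SD of Csf2, Tfpi2, Il1a and Cxcl2 in all 16 groups (n = 6 at 0 h, n = 3 elsewhere), coloured by stretch. Longitudinal stretch at 6 h (red) has the highest mean in each panel, with transverse stretch at 6 h (blue) at 5.58 against 7.30 for Csf2.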

How the data were processed

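RNA of 51 cultures was hybridized to Affymetrix arrays. The authors deposited log2 signals of 29214 probe sets. Per the submitters' processing notes these come from RMA in Affymetrix Expression Console, and limma is named too, with no versions. Other deposited log2 tables served as checks: a second table of signals was identical (largest difference 0), and the deposited 6 h fold changes matched the unadjusted group means. A single symbol was attached to 20420 probe sets, and the brightest was kept per gene, which left 18635 genes, unfiltered. The 8794 probe sets without a single symbol were tested apart. Group means with harvest terms were fitted to all 51 arrays by limma 3.58.1 (R 4.3.3, data.table version 1.17.8, 30 residual degrees of freedom), with Benjamini-Hochberg adjustment per comparison at 0.05. Probe sets carry no detection calls here, so levels near the array median may be close to background.

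The labels give the harvest of each array, which pairs them, and the deviations of same-harvest arrays from their group means correlated at 0.24, 0.57 and 0.38. The members and lists were chosen with earlier results of these data known. Named genes were those called with the same sign in 3 harvests, then those next by unadjusted p with the same sign in 3 harvests up to 24 in all (both without unnamed loci and olfactory and vomeronasal receptors), the 2 largest differences of each list, and 17 fixed genes. The procedure was tested on simulated data. Promoters came from RefSeq (GRCr8) through Python 3.11.15, and figures from matplotlib 3.10.9 and pandas 2.3.3. Alternatives changed the harvest term, the arrays fitted, the scaling, the probe set rule, the variance moderation, a filter on dim genes (mean log2 signal of 6), and left out single arrays or harvest pairs.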

Additional observations from a re-analysis of the deposited data

Results flagged for a closer look

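The difference in Csf2 between stretch directions changed over time. From 6 h to 24 h it changed by 1.74 ± 0.28 (log2, limma adjusted p = 0.0104), and from 6 h to 96 h by 1.76 ± 0.29 (limma adjusted p = 0.0120), each tested as an interaction over 18635 genes. At 6 h the longitudinal arrays were higher in 3 of 3 harvests, and at 24 and 96 h the differences were 0.02 and 0.04, at signals of 3.88 to 4.23, below the array medians near 5.3 in both directions. The 2 tests share the 6 h arrays. Both calls were lost without longitudinal harvest 3 or transverse harvest 5, and that to 96 h also without longitudinal harvest 5.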

How the results depend on the processing

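The difference of Csf2 kept its sign and its call in the 19 alternatives that could test it (-1.99 to -1.50, limma adjusted p from 1.19e-06 to 0.0215). Mmp3 passed in 15 of 19 (-0.94 to -0.78), Csf3 in 13 of 19 (-1.17 to -0.83) and Tfpi2 in 5 of 20 (-1.07 to -0.77), all negative. The 4 genes between directions became 2 with no replicate block and 12 with the replicate block in the 6 arrays alone. With genes dim over all 51 arrays left out there were 0 (110 at an unadjusted p under 0.05), since none of the 4 was tested, and with genes dim over the 9 anisotropic 6 h arrays left out, a filter chosen after seeing the data, 0 (118), where Tfpi2 alone was tested (limma adjusted p = 0.0882). Both filters also left 0 genes for the change from 6 h to 24 h (172 and 176 unadjusted) and to 96 h (266 and 269), where the main counts were 1 and 1. The gene of both main counts, Csf2, was itself left out by both filters, so its change was not tested there. Subtraction of each harvest's own 0 h array, which kept Csf2 among the genes tested, also left 0 (133) and 0 (393), and the cause of that loss was not tested. The 18 genes of longitudinal against unstretched tissue became 63 in the 6 h and 0 h arrays alone, 11 with the 0 h array subtracted, and 2 and 5 under the filters. Leaving out single arrays gave 1 to 8 genes between directions, and leaving out the pairs of harvests 3, 4 and 5 gave 1, 7 and 2. Over both kinds there were 0 to 1 and 0 to 2 for the changes, 15 to 24 for longitudinal and 0 to 1 for transverse against unstretched tissue. Where an arm kept 2 arrays the spread is pooled over all groups. The median of the cytokine list ran from -0.39 to -0.22 and that of the chemokines from -0.44 to -0.13 over 21 alternatives. Of 2434 values of named genes under alternatives, 2366 kept sign and side of the threshold, 25 lost and 19 gained a call, 24 changed sign or moved without a call, and none reversed a call. Among the 4 genes that passed, signals near or below the array median limit what can be measured for Csf3, Mmp3 and, outside longitudinal 6 h tissue, Csf2.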

Other observations

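None of the genes in the lists that follow passed between directions. The 16 intercalated disc genes had a median of 0.11 (0.01, 0.10 and 0.20 in harvests 3, 4 and 5), with 14 above 0. Over all genes 8703 of 18635 lay below 0. In every harvest 7 of the 16 were higher with transverse stretch, beside 15% of all genes. Gja5, a connexin of the conduction system, lay at 0.32 ± 0.22 and Dsc2, a desmosomal cadherin, at 0.22 ± 0.14. The 18 cardiac transcription factors had a median of 0.10, with Irx4, a ventricular factor, at 8.37, 8.51 and 8.25 with longitudinal and 8.63, 8.68 and 8.78 with transverse stretch (0.32 ± 0.18). The groups of Irx4 did not overlap, as was so with transverse higher for 4.12% of all genes. Of 30 cell cycle genes 10 were higher with transverse stretch in every harvest (beside 15% of all genes) and 0 lower (beside 11.4%). Their median was 0.07, with the G1 cyclins Ccnd1 at 0.27 ± 0.22 and Ccne1 at 0.27 ± 0.14. The 20 calcium handling genes had a median of 0.07 (-0.04, 0.13 and 0.12 by harvest), with Jph2, which joins the sarcoplasmic reticulum to the T-tubule, at 0.19 ± 0.12. Other myocyte lists had medians of 0.04 for the sarcomere (-0.03, 0.04 and 0.12 by harvest), 0.01 for oxidative phosphorylation and -0.03 for foetal and hypertrophic genes. Of the Z disc and its sensors, 10 of 20 genes had a negative difference, beside 8703 of all 18635 genes.

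Wnt5a, a secreted Wnt ligand, lay at 0.35 ± 0.16 and the growth factors Hbegf at -0.43 ± 0.33 and Ereg, epiregulin, at -0.57 ± 0.30, none of which passed. Of the 8794 probe sets without a single gene symbol, 0 passed between directions by limma (327 at an unadjusted p under 0.05, 71 higher and 256 lower with transverse stretch).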
